A study of Mus musculus with 6 samples.

Results

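The 59 genes described here lie beside Thbs1 on mouse chromosome 2. They were chosen by position, as rows of the deposited expression table whose symbol is on a list of genes within about 5 Mb of Thbs1. They are 59 of 52183 genes in the table, and 59 of the 226 annotated there within 5 Mb of Thbs1. By gene midpoint they run from Meis2, 2.16 Mb on the centromeric side, to Bloc1s6, 4.62 Mb on the telomeric side. Of them 3 lie on the centromeric side and 56 on the telomeric side. RNA was sequenced from haematopoietic stem cells, which sustain blood formation in the bone marrow. They were sorted by flow cytometry from female mice 4 months old. Of the 6 libraries, 3 carry the genotype label Control and 3 are from Thbs1 knockout mice, written TSPKO in their titles. Strain, allele, the part of Thbs1 removed and any littermate status of the controls were not given in the sources used here. Whether each library came from its own animal is not stated either, so the spread behind every p-value may be technical.

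Genes that sit close together on a chromosome are usually inherited together. Mice that carry an engineered allele therefore also carry the stretch of chromosome in which it was made, and its neighbours may differ in sequence from those of control mice. Neighbouring genes can also share regulatory elements, or overlap so that reads of the one are counted on the other. With no strain or allele given, an effect of the Thbs1 allele and a difference in the inherited stretch cannot be told apart. The 59 genes have unrelated jobs, from vesicle fusion and spindle assembly to splicing and sugar metabolism.

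Levels are FPKM, fragments for each kilobase of exon in every 1000000 mapped fragments. The steps of the FPKM values correspond to between 22710000 and 30910000 reads in a library. Across genes, libraries of the same group correlated at 0.983 to 0.987 on the log2(FPKM + 1) scale. Of 8 stem cell markers, Ly6a was lower in the libraries labelled knockout and the other 7 were not called. The summed level of the list was 451 to 507 FPKM in control libraries and 411 to 435 in those labelled knockout. Cd48 and Cd34 stand on that list as low markers, so the sum is no measure of purity. Procr went the other way, at 45.2, 43.6 and 47.4 against 67.0, 57.7 and 53.1 FPKM (limma adjusted p = 0.0857). The 6 megakaryocyte markers summed to 382 to 484 against 265 to 370 FPKM, with none called. The 5 markers of T and NK cells summed to 74.5 to 101 against 52.3 to 65.1 FPKM, nearly all of it Nkg7, which was called lower. Erythroid markers (30.9 to 38.4 against 22.2 to 25.8 FPKM) included 1 called lower, Hbb-bt. Lists that overlapped between the groups were neutrophil and monocyte, 347 to 387 against 327 to 363 FPKM and nearly all of it Lyz2, endothelial, 17.7 to 18.8 against 17.7 to 18.5 FPKM and mostly Pecam1 and Emcn, and stromal, 1.70 to 3.20 against 1.33 to 2.18 FPKM. Of their defining markers, Ly6g was listed at 0 in all 6 libraries and Cdh5 stayed at or below 0.16 FPKM, as did Cd3e among the T cell markers. The B cell markers summed to 27.5 to 30.1 against 23.5 to 25.8 FPKM, nearly all of it Cd79b, with none called. The part of these shifts in the changes given below was not tested. In bulk RNA, fewer cells of a type and less RNA per cell cannot be told apart.

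Thbs1 itself (ENSMUSG00000040152, chromosome 2, 118111876 to 118127133, plus strand, GRCm38), which encodes the matrix glycoprotein thrombospondin 1, had values of 4.12, 13.8 and 2.33 FPKM in the controls, in the order of their numbers. Its values in the knockout-labelled libraries were 10.8, 8.50 and 7.68 FPKM. The highest value belonged to a control library, and the groups overlapped. The log2 change was 0.65 ± 0.43 (SE; limma adjusted p = 0.503), and the exact two-sided permutation p was 0.5, where 3 against 3 cannot go below 0.1. Without control library 2 the change was 1.26 with a limma adjusted p of 0.0343. The knockout-labelled libraries thus did not hold less Thbs1 transcript, and each direction below rests on the labels alone.

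The neighbours with the clearest changes were Tmem87a, a membrane protein of the Golgi, and Rpusd2, a member of the pseudouridine synthase family that modifies RNA. They were the only members called higher in the libraries labelled knockout, so the sequence before their starts is shown. The 250 bases before each RefSeq start (GRCm38), which hold no annotated UTR, are printed 5′ to 3′ on the strand of the gene. Capitals mark CCGGAAG, a core bound by ETS factors, and CCAAT, the box bound by NF-Y, on either strand.
Tmem87a, minus strand, chr2:120404117-120404366: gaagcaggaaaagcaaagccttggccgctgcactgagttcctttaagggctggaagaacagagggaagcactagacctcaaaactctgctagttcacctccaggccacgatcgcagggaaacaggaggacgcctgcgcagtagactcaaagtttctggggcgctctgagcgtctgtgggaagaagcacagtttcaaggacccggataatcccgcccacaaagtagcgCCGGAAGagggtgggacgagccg
Rpusd2, plus strand, chr2:119034540-119034789: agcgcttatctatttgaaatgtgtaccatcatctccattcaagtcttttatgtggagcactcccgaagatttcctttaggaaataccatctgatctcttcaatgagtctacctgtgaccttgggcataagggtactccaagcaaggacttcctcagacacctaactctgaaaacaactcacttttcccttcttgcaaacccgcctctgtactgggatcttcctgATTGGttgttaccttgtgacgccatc
The Tmem87a stretch held 1 CCGGAAG and 0 CCAAT, and the Rpusd2 stretch held 1 CCAAT, read there as ATTGG, and 0 CCGGAAG. These motifs were searched on both strands and chosen after the sequences were seen. In windows of 300 bases, 250 before and 50 after a start, CCGGAAG was in 8.9% of 32851 RefSeq windows and in 12 of the 64 windows (18.8%) of the 56 members with an entry. CCAAT was in 37.4% of all windows and in 21 of 64 (32.8%) of the members. A match describes letters only, and no binding was measured.

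Most neighbours did not pass the test, and those that did went in both directions. Of the 59 genes, 49 were expressed highly enough to be tested, that is, 3 or more of the 6 libraries held 1 FPKM or more. With limma, 2 were called higher and 5 lower at an adjusted p below 0.05, which is 14.3% of the 49. Among all 12555 genes tested, 1.56% were called, 0.566% higher and 0.996% lower. The other 42 tested neighbours were not called. Their log2 changes ran from -0.65 to 0.91 and their adjusted p from 0.0626 to 0.992. Of the 49, 35 changed by less than 0.3 on the log2 scale in either direction, against 10718 of all 12555 genes, a larger share. The median log2 change was 0.0182 over the members and 0.0137 over all genes, while the median size of the change, whatever its sign, was 0.185 against 0.125. The groups of libraries did not overlap for 20 of 49 members, against 22.8% of all tested genes. In 13 of these the libraries labelled knockout were below (10.1% of all genes) and in 7 above (12.6%). An unadjusted p below 0.05 was found for 19 members, against 16.4% of all genes.

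Which members were lower depended on single libraries and on the scale, while the 2 higher ones, Tmem87a and Rpusd2, stayed called whichever library was left out. The count of 5 lower became 2 without control library 1, control library 2 or the library labelled knockout 1, became 1 without the libraries labelled knockout 2 or 3, and was 4 without control library 3. In those fits 0.348% to 0.622% of all genes were called lower. Rescaled to TPM, values that sum to the same total in each library, the median over the same 12555 genes moved from 0.0137 to 0.209. In that fit 15277 genes were tested, and 10 of 52 members (19.2%) were called higher and 2 lower (3.85%). On that scale 13.2% of all tested genes were called higher and 0.838% lower. With no filter on low values, 2 members were called higher and 0 lower by limma, with 11 lower at an unadjusted p below 0.05. There 0.0227% of all genes were called higher and 0.0454% lower. With protein-coding genes alone, an alternative added after seeing the data, 4 members were called higher and 7 lower, against 1.19% and 1.51% of those genes. Of the called members, Tmem87a and Rpusd2 on the higher side and Plcb2 and Sord on the lower side were called on both scales.

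**Figure D1:**
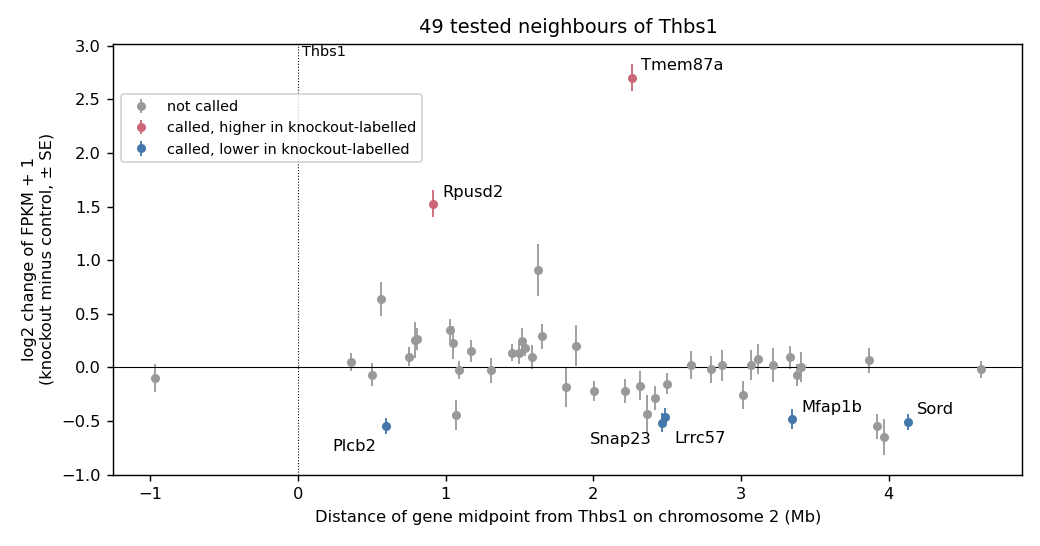
Each point is 1 of the 49 tested neighbours of Thbs1, plotted by the distance of its midpoint from Thbs1 (Mb, negative on the centromeric side) against its log2 change of FPKM + 1, libraries labelled knockout minus control, with limma's standard error as bars. Red points were called higher and blue points lower at an adjusted p below 0.05. Tmem87a at 2.70 and Rpusd2 at 1.53 stand above the rest, which lie between -0.65 and 0.91. Rescaling to TPM moves the median of the 12555 genes tested up to 0.209.

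Tmem87a (ENSMUSG00000033808, chromosome 2, 120355312 to 120404113, minus strand) was at 2.12, 1.40 and 1.37 FPKM in the control libraries and at 15.8, 16.7 and 15.6 FPKM in those labelled knockout. The groups lay far apart, and the lowest value labelled knockout was several times the highest control value. It rose 9.81-fold, from 1.63 ± 0.425 to 16.0 ± 0.576 FPKM (SD, n = 3 each; log2 change 2.70 ± 0.13 SE, limma adjusted p = 1.38e-05). Its values rest on 234 to 3672 reads a library. It was called in 17 of 17 other settings, with log2 changes of 2.63 to 3.24. Its nearest tested neighbours did not share the change. Vps39, a subunit of the HOPS complex that tethers vesicles to lysosomes, was at 18.7, 18.8 and 14.6 FPKM in control libraries and at 14.0, 15.8 and 14.4 FPKM in those labelled knockout (log2 change -0.22 ± 0.11, adjusted p = 0.359). Ganc, a neutral alpha-glucosidase, was at 3.52, 3.85 and 3.53 against 2.86, 2.86 and 3.68 FPKM (log2 change -0.17 ± 0.13, adjusted p = 0.571). The groups overlapped for both. Ganc and Tmem87a lie head to head and share 209 bases of exon on opposite strands, 2.78% of the exon length of Tmem87a. The library kit does not mark strand, so reads from those bases cannot be assigned to either gene. Ehd4, Capn3, Zfp106, Snap23 and Lrrc57, which surround them, all had changes below 0, from -0.22 to -0.52, and among these Snap23 and Lrrc57 were called.

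**Figure D2:**
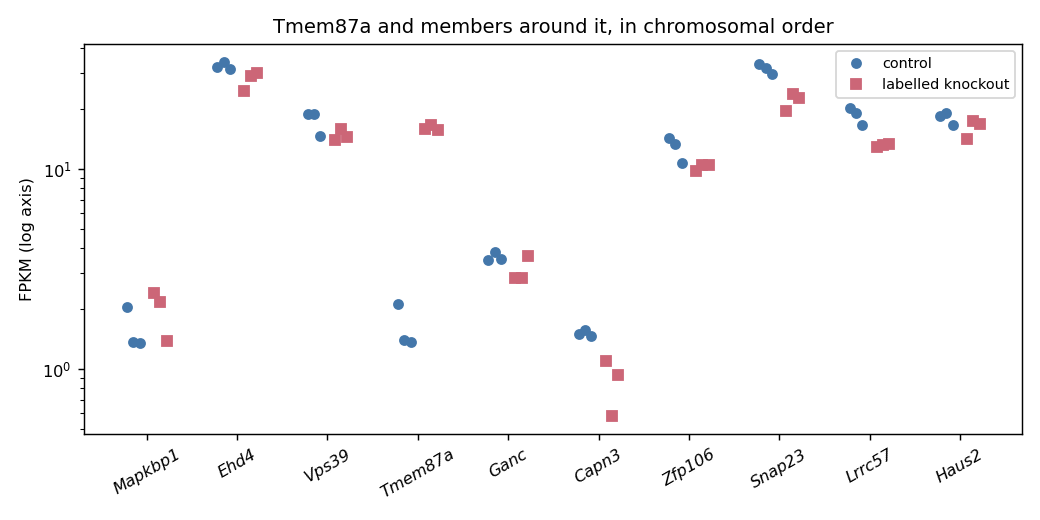
FPKM on a log axis for Tmem87a and the tested members on either side of it, in chromosomal order, with 1 point for each library. Blue circles are the 3 control libraries and red squares the 3 labelled knockout. Tmem87a moves from 1.37 to 2.12 FPKM up to 15.6 to 16.7 FPKM. None of the other genes shown changes by more than 0.52 in either direction on the tested scale, log2(FPKM + 1). On the plotted FPKM axis low genes move further, such as Capn3, from a mean of 1.51 to 0.87 FPKM.

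Rpusd2 (ENSMUSG00000027324, chromosome 2, 119034790 to 119039769, plus strand) was at 1.78, 2.43 and 1.82 FPKM in the control libraries and at 7.47, 7.87 and 7.55 FPKM in those labelled knockout. The groups did not overlap, and the values labelled knockout varied less than those of the controls relative to their mean. It rose 3.8-fold (log2 change 1.53 ± 0.13 SE, limma adjusted p = 0.000486) and was called in 16 of 16 other settings that tested it. Chst14, the sulfotransferase that makes dermatan sulfate, lies before it and was at 7.97, 9.41 and 8.26 against 11.3, 10.4 and 9.75 FPKM (log2 change 0.27 ± 0.10, adjusted p = 0.226). Rmdn3, a mitochondrial outer membrane protein that tethers mitochondria to the endoplasmic reticulum, lies after it and was at 11.4, 9.61 and 9.96 against 13.0, 14.7 and 12.6 FPKM (log2 change 0.35 ± 0.10, adjusted p = 0.130). For both neighbours the 3 libraries labelled knockout were above the 3 control libraries, yet neither passed the test.

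Plcb2 (ENSMUSG00000040061, chromosome 2, 118707517 to 118728438, minus strand), a phospholipase C that acts below G protein-coupled receptors, was at 34.1, 36.1 and 33.4 FPKM in the control libraries and at 24.3, 23.1 and 22.6 FPKM in those labelled knockout. Its mean fell 1.48-fold, from 34.5 ± 1.40 to 23.3 ± 0.896 FPKM (SD, n = 3 each), a log2 change of -0.55 ± 0.07 SE (limma adjusted p = 0.00699). Each library labelled knockout was below each control library, and the call was lost in 1 of 17 other settings, with no filter on low values (adjusted p = 0.0521). Its neighbour on one side, the kinase gene Pak6, was low and read at 0.94, 0.81 and 0.92 against 1.78, 1.89 and 2.15 FPKM (log2 change 0.64 ± 0.16, adjusted p = 0.0911). The neighbour on the other side is Ivd, which encodes an enzyme of leucine breakdown, at 17.4, 15.6 and 17.2 against 18.9, 16.5 and 18.6 FPKM (log2 change 0.10 ± 0.09, adjusted p = 0.623). Other tested genes lie nearer to Plcb2 than these members. Inafm2, next to it on the side of Ivd, was at 22.2, 20.8 and 20.7 against 20.5, 15.7 and 19.1 FPKM, with the knockout-labelled libraries below (log2 change -0.20 ± 0.10, limma adjusted p = 0.366), and Ankrd63, next to it on the side of Pak6, had a log2 change of 0.44 ± 0.18 (limma adjusted p = 0.258). Neither was called.

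Sord (ENSMUSG00000027227, chromosome 2, 122234749 to 122265340, plus strand), sorbitol dehydrogenase of the polyol pathway, was among the most abundant members, at 132, 153 and 136 FPKM in control libraries and 101, 96.8 and 96.5 FPKM in those labelled knockout. Its mean fell 1.43-fold, from 140 ± 11.2 to 98.2 ± 2.67 FPKM (SD, n = 3 each), a log2 change of -0.51 ± 0.07 SE (limma adjusted p = 0.0112), on 5847 to 8311 reads a library. The groups did not overlap, but the call was lost in 6 of 17 other settings, with adjusted p up to 0.124. These were the fits without the library labelled knockout 2 or 3 (adjusted p up to 0.0657), eBayes without trend, the replicate block and both fits with no filter on low values. Spg11, which lies before it, encodes spatacsin, needed to renew lysosomes, and was at 4.10, 3.46 and 3.04 against 2.10, 1.37 and 2.22 FPKM (log2 change -0.65 ± 0.17, adjusted p = 0.0992). Bloc1s6, which lies after it and encodes a subunit of the complex that forms lysosome-related organelles, was at 23.9, 25.3 and 24.1 against 25.9, 24.1 and 22.5 FPKM. Its log2 change was -0.02 ± 0.08 (adjusted p = 0.950) and turned to 0.18 on rescaling to TPM.

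Snap23 and Lrrc57 lie side by side and fell together. Snap23 (ENSMUSG00000027287, chromosome 2, 120567671 to 120601255, plus strand), a SNARE protein that drives vesicle fusion with the plasma membrane, was at 33.5, 32.0 and 29.8 FPKM in control libraries and 19.5, 23.7 and 22.6 FPKM in those labelled knockout (log2 change -0.52 ± 0.09 SE, limma adjusted p = 0.0286). Lrrc57 (ENSMUSG00000027286, chromosome 2, 120604238 to 120609520, minus strand), which encodes a leucine-rich repeat protein, was at 20.1, 19.0 and 16.6 against 12.9, 13.2 and 13.3 FPKM (log2 change -0.47 ± 0.09, adjusted p = 0.0392). The groups of both genes were separate, though both calls were lost in 10 of 17 other settings, with adjusted p up to 0.161 for Snap23 and 0.170 for Lrrc57. Of the 6 fits that left out 1 library, both calls held only in the one without control library 3. Zfp106, a zinc finger protein that binds RNA, lies before Snap23 and was at 14.2, 13.3 and 10.7 against 9.71, 10.4 and 10.5 FPKM (log2 change -0.28 ± 0.11, adjusted p = 0.245). Haus2, a subunit of the augmin complex of the spindle, lies after Lrrc57, shares 138 bases of exon with it on the opposite strand, and was at 18.5, 19.0 and 16.5 against 14.1, 17.4 and 16.7 FPKM. Its log2 change was -0.15 ± 0.10 (adjusted p = 0.488), or 0.040 on rescaling to TPM. The fall was thus called for the 2 middle genes of this stretch and not for those at its ends.

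Mfap1a and Mfap1b are neighbours that encode the same splicing factor. Their coding sequences, 1317 bases long, are identical, and their longest transcripts match at 99.3% over 2328 bases. The first 90 coding bases of each are printed to show what reads from them share.
Mfap1a: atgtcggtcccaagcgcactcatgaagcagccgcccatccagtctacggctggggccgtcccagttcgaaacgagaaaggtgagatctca
Mfap1b: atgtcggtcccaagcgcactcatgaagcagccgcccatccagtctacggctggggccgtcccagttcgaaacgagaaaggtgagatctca
Mfap1b (ENSMUSG00000048222, chromosome 2, 121460235 to 121474067, minus strand) was at 11.8, 11.9 and 10.8 FPKM in control libraries and 7.66, 7.61 and 8.53 FPKM in those labelled knockout, and fell by a log2 change of -0.48 ± 0.09 SE (limma adjusted p = 0.0383). The call was lost in 11 of 17 other settings, including all 6 fits that left out 1 library, more than for the other 6 called members. Mfap1a was at 5.92, 6.08 and 5.99 against 5.30, 5.79 and 5.88 FPKM (log2 change -0.07 ± 0.10, adjusted p = 0.778, and 0.11 on rescaling to TPM). In reads per 1000000 mapped the pair summed to 63.8 ± 1.97 against 50.4 ± 2.72, with the groups apart, and the share counted on Mfap1b was 60.5% ± 1.18 against 52.9% ± 1.39. Serf2, on the other side of Mfap1b, was at 5.21, 6.02 and 6.38 against 6.36, 6.53 and 6.06 FPKM and shares much of its exon with Hypk and Serinc4. Sord also has a copy, Gm6652, at 99.4% over 1070 bases, but the copy held at most 0.562% of the reads of the pair, and the sum was 331 ± 26.1 against 232 ± 6.11 reads per 1000000 mapped.

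**Figure D3:**
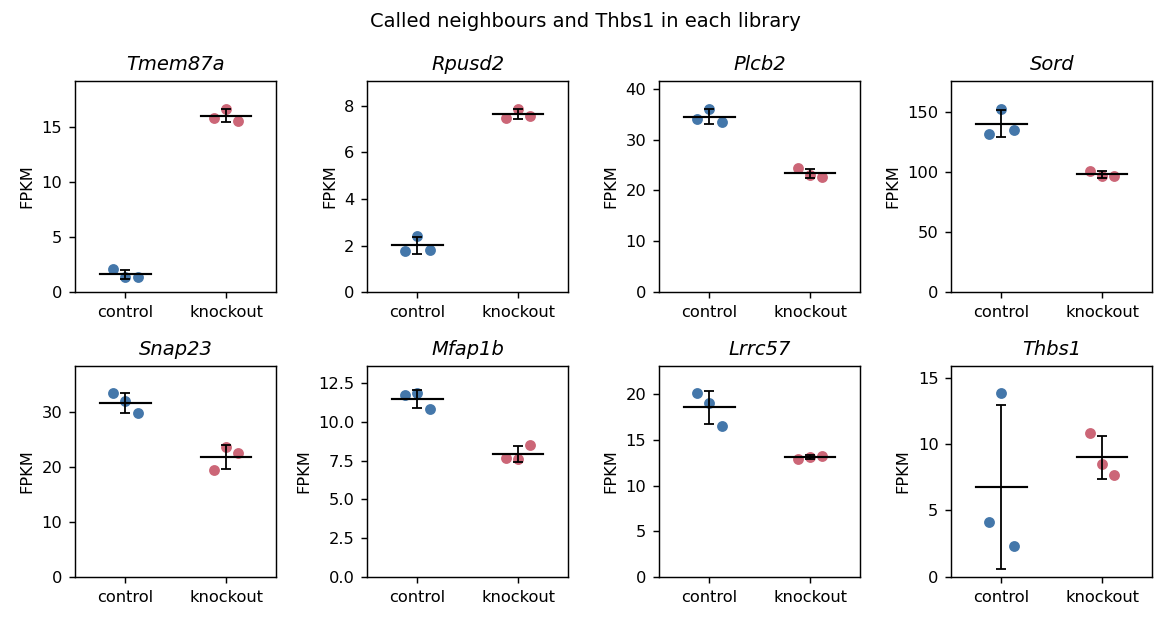
FPKM in each library for the 7 called members and for Thbs1, with control libraries in blue and libraries labelled knockout in red; horizontal bars are means and error bars are SD over 3 libraries. Every axis starts at 0. The groups are separate for the 7 members, while for Thbs1 the 3 control values, from 2.33 to 13.8 FPKM, span the values labelled knockout.

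Of the role lists, RNA and translation had the largest share of genes whose groups did not overlap, 6 of 7, against 22.8% of all genes. In 5 of these the knockout-labelled libraries were below: Mfap1a, Mfap1b, Eif3j1, Dnajc17 and Lcmt2. They are not 5 separate measurements, since Mfap1a and Mfap1b share their coding sequence, and Eif3j1 and Dnajc17 have near-identical copies, described below, to which reads can be assigned. The groups overlapped for Eif3j1 summed with its copy and stayed apart for Dnajc17 summed with its copy. Rpusd2 rose and Mfap1b fell, so 2 of 7 were called, against 1.56% of all genes, and the median log2 change was -0.26. Eif3j1, a subunit of translation initiation factor eIF3, was at 6.24, 6.19 and 6.46 against 3.47, 4.64 and 3.90 FPKM (log2 change -0.55 ± 0.12, limma adjusted p = 0.0626). Dnajc17, a J-domain co-chaperone linked to splicing, was at 6.28, 8.94 and 7.24 against 5.84, 4.58 and 5.19 FPKM (log2 change -0.45 ± 0.14, adjusted p = 0.154). Lcmt2, which takes part in modifying phenylalanine tRNA, was at 11.1, 11.2 and 10.4 against 7.10, 9.97 and 10.1 FPKM (log2 change -0.26 ± 0.13, adjusted p = 0.356). Srp14, part of the signal recognition particle and at 147 ± 16.2 FPKM the highest member in control libraries, was the one whose groups overlapped.

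The 8 membrane traffic genes were all tested, with 1 called higher, Tmem87a, and 1 lower, Snap23, against 0.566% and 0.996% of all genes. Their median log2 change was -0.12, and 6 of 8 changes were below 0. Besides Spg11 and Vps39, given above, the smallest p among those not called was that of Ehd4, an ATPase of endocytic recycling, at 32.2, 34.3 and 31.5 against 24.4, 29.2 and 30.2 FPKM (log2 change -0.22 ± 0.09, limma adjusted p = 0.266). The remaining members, Vps18, Zfyve19 and Bloc1s6, were not called. The medians of this list and of the RNA list follow the scale: on rescaling to TPM they were 0.0752 and -0.0805, but each stayed below the median of all genes, by 0.134 and 0.290.

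Of the 13 signalling genes only 7 were expressed highly enough to be tested, with 0 called higher by limma and 1 lower, Plcb2 (0.566% and 0.996% of all genes), 3 at an unadjusted p below 0.05 (16.4% of all genes) and a median log2 change of 0.135. Itpka, a kinase that converts inositol trisphosphate, was at 1.21, 0.57 and 0.70 against 3.83, 1.65 and 2.05 FPKM. The groups did not overlap, but the spread was wide and the change was not called (log2 change 0.91 ± 0.25, limma adjusted p = 0.113). Itpka and Pak6 were among the lowest tested members, and both were called higher when protein-coding genes alone entered the test. Pak6 reached 1 FPKM only in the libraries labelled knockout, and Itpka in those and in control library 1. Both were thus tested only through the group where they were high, and these calls are no separate support for a rise. Chp1, a calcium-binding regulator of sodium-proton exchange, was at 20.8, 22.4 and 20.8 against 23.8, 22.1 and 24.7 FPKM, with a log2 change of 0.14 ± 0.08 (adjusted p = 0.428). Of the 6 metabolism genes 1 was called, Sord, against 1.56% of all genes. Ndufaf1, an assembly factor of respiratory complex I, was at 34.7, 38.2 and 33.7 against 40.9, 40.2 and 39.7 FPKM, with the groups apart but a change of only 0.18 (adjusted p = 0.266). Gchfr, the feedback regulator of GTP cyclohydrolase, was at 8.36, 13.3 and 12.3 against 14.5, 11.9 and 13.3 FPKM, with a log2 change of 0.23 ± 0.15 (adjusted p = 0.504).

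The chromatin, transcription and DNA repair genes had small changes. With limma, 0 of 10 tested were called, against 1.56% of all genes. Before adjustment 2 of them passed 0.05, a share near the 16.4% of all genes. All 10 changes lay between -0.28 and 0.29. They include Ino80, a chromatin remodelling ATPase, Rtf1 of the Paf1 elongation complex, Trp53bp1, which acts at DNA breaks, and Cdan1, mutated in a congenital dyserythropoietic anaemia. Rpap1, which binds RNA polymerase II, was at 10.2, 9.76 and 8.20 against 12.2, 10.1 and 12.8 FPKM (log2 change 0.29 ± 0.12, adjusted p = 0.254), and Bahd1, a heterochromatin protein, was at 7.01, 4.75 and 6.58 against 9.17, 6.12 and 7.22 FPKM (log2 change 0.26 ± 0.17, adjusted p = 0.484). With limma, 0 of 6 tested genes of mitosis, centrosome and microtubules were called either, with 1 unadjusted p below 0.05, that of Rmdn3, again near the share of all genes. Nusap1, a spindle protein, was at 26.6, 25.1 and 23.3 against 24.1, 34.5 and 31.8 FPKM (log2 change 0.25 ± 0.12, adjusted p = 0.360). Of the 2 tested genes of proteolysis, neither was called with limma and 1 had an unadjusted p below 0.05, too few genes to set against the 16.4% of all genes. That gene was Capn3, a calpain best known from muscle, at 1.5, 1.57 and 1.46 against 1.10, 0.58 and 0.93 FPKM (log2 change -0.43 ± 0.18, adjusted p = 0.263). Ubr1, a ubiquitin ligase of the N-degron pathway, was at 6.70, 5.77 and 5.19 against 5.11, 5.88 and 6.39 FPKM, with a log2 change of -0.02, which was 0.17 on rescaling to TPM. Of the 3 genes outside these lists Lrrc57 fell, and Serf2 (log2 change 0.09) and Tmem62 (log2 change 0.02) were not called.

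Members with small changes lay among those that were called. Bub1b, a spindle checkpoint kinase, was at 28.0 ± 2.68 against 26.7 ± 3.54 FPKM (SD, n = 3 each, as for the levels that follow), and Oip5, which helps load the centromeric histone, at 22.2 ± 3.01 against 24.3 ± 1.48 FPKM. Tubgcp4, a subunit of the gamma-tubulin complex, was at 4.74 ± 0.414 against 4.85 ± 0.897 FPKM and shares 2130 bases of exon with Trp53bp1, which lies on the opposite strand and was at 6.76 ± 0.770 against 7.24 ± 1.33 FPKM. All 4 had overlapping groups. Vps18 encodes a partner of Vps39 in the HOPS complex and was at 9.67 ± 0.549 against 10.9 ± 1.23 FPKM. Its log2 change was 0.15 ± 0.10 (limma adjusted p = 0.503) where that of Vps39 was -0.22 ± 0.11, and neither was called. Wdr76, next to Mfap1a, was at 3.48 ± 0.681 against 3.46 ± 0.121 FPKM, and Ctdspl2, the tested member before Eif3j1, a phosphatase gene, at 9.17 ± 0.981 against 9.66 ± 1.2 FPKM. The groups of both overlapped.

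Several members have a near-identical copy elsewhere in the genome, and for 3 of them the copy was read higher in every knockout-labelled library than in any control. Eif3j1 matches Eif3j2, on chromosome 18, at 99.4% over 2379 bases. Eif3j2 was at 0.42, 0.40 and 0.35 FPKM in control libraries and at 5.81, 8.25 and 7.18 FPKM in those labelled knockout, and rose by a log2 change of 2.53 ± 0.15 (limma adjusted p = 4.71e-05). Counted as reads per 1000000 mapped, Eif3j1 was at 36.7 ± 0.837 against 23.3 ± 3.45 (SD, n = 3 each), and the pair together at 37.6 ± 0.761 against 40.2 ± 6.32. The share of the pair counted on Eif3j2 was 2.16% to 2.67% in control libraries and 40.6% to 42.9% in those labelled knockout. The sum therefore overlapped between the groups while its division between the 2 loci did not. Spg11, which overlaps Eif3j1 by 1107 bases of exon on the opposite strand, matches Gm3650, an unprocessed pseudogene beside Eif3j2 on chromosome 18, at 99.9% over 747 bases. Gm3650 was listed at 0 in the 3 control libraries and at 1.73, 1.13 and 1.72 FPKM in those labelled knockout, and was called higher (limma adjusted p = 0.0129). Eif3j2 and Gm3650 reached the level for testing only through the libraries labelled knockout, where they were high. Their calls are therefore no separate support for a rise. For Spg11 and its copy the sum stayed apart between the groups, at 28.4 ± 4.29 against 16.4 ± 3.95 reads per 1000000 mapped. The third is Dnajc17, which matches the processed pseudogene Gm6257 on chromosome 9 at 97.0% over 912 bases. Gm6257 was listed at 0 in the control libraries and at 0.43, 0.38 and 0.26 FPKM in those labelled knockout, too low to be tested. It held 3.37% to 5.46% of the pair in the libraries labelled knockout. The sum of Dnajc17 and its copy stayed apart between the groups, at 9.79 ± 1.76 against 7.13 ± 0.852 reads per 1000000 mapped. From how many loci these reads came cannot be read from gene-level values.

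**Figure D4:**
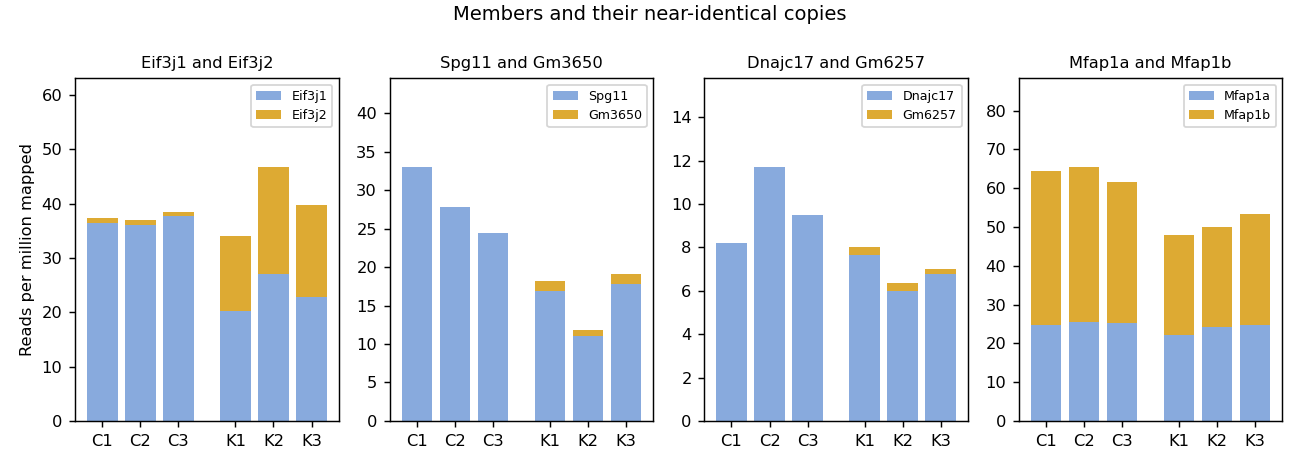
Reads per 1000000 mapped in each library for 4 members and their near-identical copies, stacked, with C1 to C3 the control libraries and K1 to K3 those labelled knockout. Blue is the member named first in each panel title and yellow the second gene. Eif3j2 takes 2.16% to 2.67% of its pair in the control libraries and 40.6% to 42.9% in those labelled knockout, and the total of Mfap1a and Mfap1b is lower in each library labelled knockout.

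On the telomeric side, changes within 2 Mb of Thbs1 were mostly above 0 and those between 2 and 3 Mb mostly below. Of the 23 members tested within 2 Mb on the telomeric side, 17 had a change above 0 and 6 below, with a median log2 change of 0.154. Of the 25 tested between 2 and 5 Mb, 9 were above and 16 below, with a median of -0.154. Between 2 and 3 Mb 3 were above and 9 below, but between 3 and 4 Mb 6 were above and 5 below. Between 4 and 5 Mb 0 were above and 2 below. Of all tested genes 53.4% had a change above 0. On rescaling to TPM the median between 2 and 5 Mb turned to 0.0400. Relative to the median of all genes the stretches of 0 to 2 and 2 to 5 Mb stayed on either side, at 0.151 and -0.169. No test compared the stretches, and neighbours that overlap are not independent. With limma 3 of 12 members tested between 2 and 3 Mb were called, and 0 of 15 between 1 and 2 Mb, against 1.56% of all genes. At that share a count of 0 of 15 does not set the stretch apart. Of these 15, 5 had an unadjusted p below 0.05, against 16.4% of all genes. On the centromeric side Spred1, an inhibitor of Ras signalling, was the only member tested, with a log2 change of -0.10 ± 0.13 that turned above 0 on rescaling to TPM (limma adjusted p = 0.753).

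The genes of the window that are not on the list gave a share of calls near that of the members. Of 166 such genes 34 were tested, and 4 of these, 11.8%, were called with limma. Gatm, which makes the precursor of creatine, rose from 38.5, 40.1 and 41.8 to 71.4, 96.6 and 82.8 FPKM (log2 change 1.03 ± 0.10, adjusted p = 0.00141). Slc28a2, a nucleoside transporter, fell 3.32-fold, from 9.86, 9.35 and 7.28 to 2.38, 2.87 and 2.74 FPKM (log2 change -1.42 ± 0.13, adjusted p = 0.000921). The groups of both genes were far apart. Spata5l1, annotated as a processed transcript, fell from 2.37, 2.18 and 3.33 to 0.86, 0.97 and 0.70 FPKM (log2 change -0.97 ± 0.18, adjusted p = 0.0328). Spata5l1 reached 1 FPKM only in the control libraries and was thus tested only through the group where it was high. Its call is no separate support for a fall, and the counts of called genes given here include it. Pdia3, a disulfide isomerase of the endoplasmic reticulum, fell from 285, 288 and 297 to 239.6, 219.8 and 228 FPKM (log2 change -0.34 ± 0.07, adjusted p = 0.0401), a small change with little spread. Taking all 84 tested genes within 5 Mb, with Thbs1, 11 were called (13.1%). The share was 2.04% of 49 genes between 5 and 10 Mb, 9.28% of 97 between 10 and 20 Mb, and 1.33% of 225 between 20 and 40 Mb. On the rest of chromosome 2 it was 0.923% of 542 and on other chromosomes 1.44% of 11558. Within 5 Mb, 8 genes were tested on the centromeric side, with 0 called by limma and 0 at an unadjusted p below 0.05, and 75 on the telomeric side, with 11 called.

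**Figure D5:**
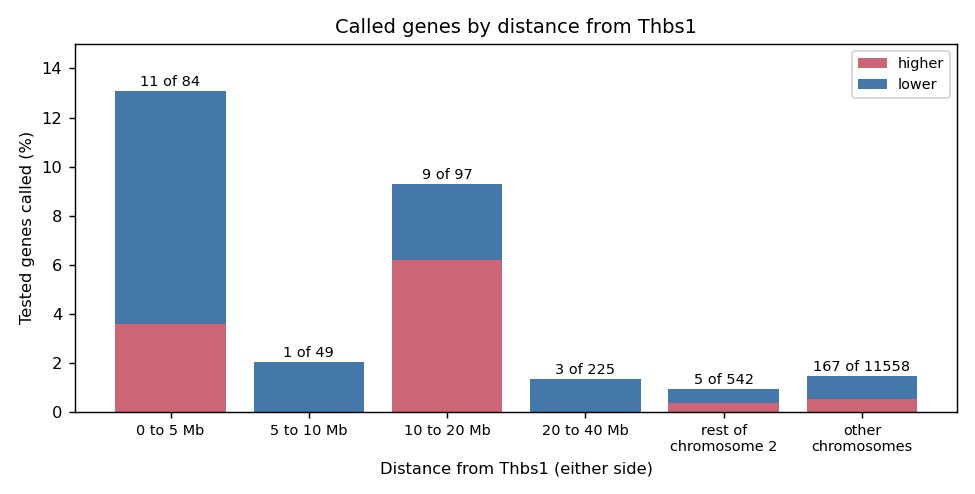
Percent of tested genes called at an adjusted p below 0.05, by distance of the gene midpoint from Thbs1 on either side, for the rest of chromosome 2 and for the other chromosomes; red is the part called higher and blue the part called lower, and the numbers above the bars are genes called of genes tested. The bar is 13.1% within 5 Mb and 9.28% between 10 and 20 Mb, against 1.44% on other chromosomes.

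The 10 members that did not reach the level for testing were Meis2, Rasgrp1, Gpr176, Disp2, Spint1, Dll4, Tyro3, Stard9, Ttbk2 and Trim69. Meis2, a homeobox partner of HOX proteins, was at 0.24, 0.26 and 0.19 FPKM in control libraries and at 0.02, 0 and 0.04 FPKM in those labelled knockout. These values stand for 52 to 75 reads against 0 to 12, spread over 12043 bases of exon, and the groups were apart. Fitted with no filter on low values it was not called (log2 change -0.27 ± 0.05, limma adjusted p = 0.22). Tyro3, a receptor kinase of the TAM family, was at 0.44, 0.25 and 0.46 against 0.60, 0.94 and 0.68 FPKM, also with the groups apart, and was not called without the filter (adjusted p = 0.698). Dll4, a Notch ligand, was at 0.55, 0.99 and 0.62 against 0.87, 0.65 and 0.57 FPKM, and the groups overlapped. The groups of the other 7 overlapped too. Ttbk2, a tau tubulin kinase that shares 3409 bases of exon with Cdan1 on the same strand, reached 1.27 FPKM and the remaining 6 stayed at or below 0.58 FPKM. With no filter, limma called 0 of these 10, and Meis2 alone had an unadjusted p below 0.05. In that fit only 0.0227% of all genes were called higher and 0.0454% lower, so 0 of 10 says little about these members. At these levels a change could be missed for want of reads.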

How the data were processed

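RNA sequencing libraries of sorted haematopoietic stem cells, 3 labelled control and 3 labelled Thbs1 knockout, were made from 2 ng of total RNA each with the SMART-Seq v4 kit, per the labels' protocols. FastQC 0.11.5, STAR and edgeR appear in the submitters' processing notes without roles, with the builds GRCm38 and mm10. Counting and strand rules were not given in the sources used here. FPKM is the authors' unit, per the name of the deposited table, which holds values for 52183 genes, all of which matched GENCODE M21 (GRCm38), the source of positions and exon lengths.

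Depth was read from the steps of FPKM of genes with at most 400 bases of exon, of which 99.6% to 99.8% were whole within 0.1 read. Reads behind a value are estimates from it and cover counting error only. Replicates differed beyond sampling noise (chi-square per degree of freedom 7.56 to 13.9). FPKM are not counts, so log2(FPKM + 1) was tested with limma 3.58.1 in R 4.3.3 (eBayes with trend, two-sided, group as the only term) on genes that reached 1 FPKM in 3 or more libraries, with Benjamini-Hochberg adjustment over 12555 genes and a threshold of 0.05. The scale understates changes of low genes. The fit was tested on simulated data.

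The members and lists were chosen with earlier results of these data known, so no p was adjusted over a list alone. Values per library are given for called members and the nearest tested member on either side (other genes can lie between), with up to 3 more for each role by smallest unadjusted p, for Thbs1, and for called genes within 5 Mb. Near copies, members below the filter, Ly6a and other markers, and Inafm2, Ankrd63, Srp14, Spred1 and members with small changes are given beyond that rule, after their values were seen. Copies were found with BLAST 2.17.0 (at least 95% identity over 300 bases). Promoter sequences are from RefSeq (GRCm38), and coding sequences were joined from GENCODE exons. Alternatives were a pseudocount of 0.1, 2 other filters, TPM, 2 other scalings, eBayes without trend, array weights, a replicate block and leaving out each library; protein-coding genes alone, and that pseudocount with no filter, were added after the data were seen.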

Additional observations from a re-analysis of the deposited data

How the results depend on the processing

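Against 2 members called higher and 5 lower by limma, a mean of at least 5 FPKM gave 1 higher, because Rpusd2 did not reach that mean. It gave 6 lower, Eif3j1 being the added one, against 1.37% and 1.85% of all genes. TPM gave 10 higher and 2 lower, against 13.2% and 0.838% of all genes. No filter on low values left 0 members called lower with limma, with 11 lower at an unadjusted p below 0.05. Of the 35246 genes tested there, 0.0454% were called lower. With eBayes without trend 3 members were called higher, Pak6 being the added one, and 1 lower. There 0.191% and 0.518% of all genes were called, against 0.566% and 0.996% in the reported fit. With 1 library left out, 1 to 4 members were called lower, while 2 stayed called higher each time. Of all genes 0.348% to 0.622% were called lower in these fits and 0.13% to 0.308% higher. Of the alternatives added after seeing the data, pseudocount 0.1 with no filter gave 2 higher and 1 lower, against 0.0397% and 0.0993% of all genes. Protein-coding genes alone gave 4 higher and 7 lower, against 1.19% and 1.51% of those genes. Called genes within 5 Mb numbered 11 of 84 tested, and 7 of 49 over members only, against 1.56% of all genes. Thbs1 ranged from 0.19 to 1.26 with 1 library left out. None of the 7 called members reversed direction. Of all 49 tested members, 8 turned above 0 under TPM, and 2 to 6 turned either way with 1 library left out, none with a reported change larger than 0.154 in size. Among the members given by the naming rule these were, under TPM, Haus2 (0.040), Ubr1 (0.17), Mfap1a (0.11) and Bloc1s6 (0.18); and with 1 library left out, Ubr1 (-0.092 to 0.065), Tmem62 (-0.074 to 0.13) and Bloc1s6 (-0.067 to 0.031). The causes were not tested.

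Same-numbered libraries did not deviate together (correlations -0.110, 0.0372 and -0.0791). Whether they share more than a number is not stated, and these correlations, from 3 libraries a group, cannot decide it. With the replicate number as a block, 2 members were called higher and 1 lower, against 0.215% and 0.43% of all genes. Not every library correlated best with its own number.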
